A study of Homo sapiens with 8 samples.

Results

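RREB1 (Ras-responsive element binding protein 1, ENSG00000124782.20) encodes a transcription factor with many C2H2 zinc fingers. It was taken up here through the features that carry its name in the authors' deposited table of m6A change. All features named RREB1 were used, which gave 8 of the 4616 listed features. The gene was chosen from these values, because it held 8 features and 7 of them had a negative ratio, so its number of features, its signs and its ratios are given as a description with no test.

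The study set N6-methyladenosine (m6A) in HL-60 cells under decitabine against the same cells under DMSO, the vehicle. HL-60 is an established human promyelocytic leukaemia line, and the labels give the genotype of all samples as WT. Decitabine, a deoxycytidine analogue that traps DNA methyltransferases, was added 3 times, at the start and after 24 and 48 hours, to 100 nM each, and RNA was taken after 72 hours in both arms. The design held 8 libraries in 4 groups of 2: m6A immunoprecipitate and input, each with decitabine and with DMSO. The labels say no more of the cultures than that they were set up in duplicate.

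RREB1 binds Ras-responsive elements in promoters and acts downstream of RAS and the MAP kinases. It also works with SMAD factors in the response to TGF-beta, in which it takes part in the epithelial-mesenchymal transition. HL-60 cells carry an activated NRAS oncogene. m6A is the most abundant internal modification of mRNA. It is written by the METTL3-METTL14 complex, is frequent in long internal exons and around stop codons, and affects the stability, splicing and translation of the transcript through reader proteins.

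In the authors' deposited table each feature has a position on hg38, a log ratio between the arms and a p-value, with no value per library. No error or replicate spread can therefore be attached to any ratio, and the depth behind it is unknown. The ratio was read as a natural log, and its exponential without the sign, which is the higher arm over the lower, is given below as a fold. No source used here states the numerator. A negative value likely means less m6A signal with decitabine than with DMSO, because the table bears the name of decitabine, but features are called only negative or positive here. The sources used here do not say how the ratio was corrected for input, so a change in the RREB1 transcript level and a change in its m6A cannot be told apart.

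The 8 features of RREB1 lay in the 3' part of the gene, in an upstream group of 5 and a downstream group of 3. The RefSeq span of RREB1 on GRCh38.p14 runs over 144238 nt on chromosome 6, from 7107743 to 7251980, on the plus strand. The first 121517 nt of that span held no listed feature. The 8 features together spanned 19579 nt, or 13.6% of the gene span, and covered 400 nt. The upstream group lay within 2493 nt and the downstream group within 2136 nt, with 14950 nt between them that held no listed feature. All 8 lay in the last 20% of the span. Over all listed features inside a matched gene span of 100 kb or more, 57.0% of 901 did. Positions were set against the span of the whole gene, and whether a feature lies in an exon, an intron or a UTR was not analysed here. No feature sequence is shown, since no genome sequence was used.

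In the upstream group 4 features were negative and the last was positive. The upstream-most feature of RREB1 (chromosome 6, 7229260 to 7229309) had a negative ratio of 3.25-fold in the authors' deposited table (log ratio -1.18, p = 0.000334). It was the farthest from the 3' end of the span, at 22671 nt, and stood 1296 nt apart from the next feature. At 7230606 to 7230655, the authors' deposited table gave RREB1 a negative 1.87-fold ratio (log ratio -0.63, p = 0.000634). The next feature, 150 nt further on at 7230806 to 7230855, was negative at 2.28-fold in the authors' deposited table (log ratio -0.82, p = 0.000135). These are the closest neighbours among the RREB1 features. Another negative feature followed after 349 nt, at 7231205 to 7231254, with 1.69-fold in the authors' deposited table (log ratio -0.53, p = 0.00128). It had the smallest ratio of the upstream group.

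The only positive feature of RREB1 closed the upstream group. At 7231703 to 7231752 the authors' deposited table listed a positive 1.90-fold ratio (log ratio 0.64, p = 0.00268). It lay 448 nt downstream of the nearest negative feature. Its ratio was between those of the negative features at 7230606 and 7230806, so features of opposite sign and similar size stood within the same 2493 nt. Whether these features lie on the same exon, or on the same transcript isoform of RREB1, was not examined.

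All 3 downstream features were negative, and the largest ratio of the gene was among them. At 7246703 to 7246752, the authors' deposited table listed a negative 3.61-fold ratio (log ratio -1.28, p = 0.00252), 5228 nt from the 3' end of the span. After a further 348 nt, the feature at 7247101 to 7247150 had a negative ratio of 618-fold in the authors' deposited table (log ratio -6.43, p = 4.6e-05). This was the smallest p-value of the gene and its only ratio above 4-fold, 171 times the next largest negative ratio of RREB1. The last feature, at 7248789 to 7248838, was negative at 1.67-fold in the authors' deposited table (log ratio -0.51, p = 0.00273), 3142 nt from the 3' end. It had the smallest ratio and the largest p-value of the 8.

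**Figure D1:**
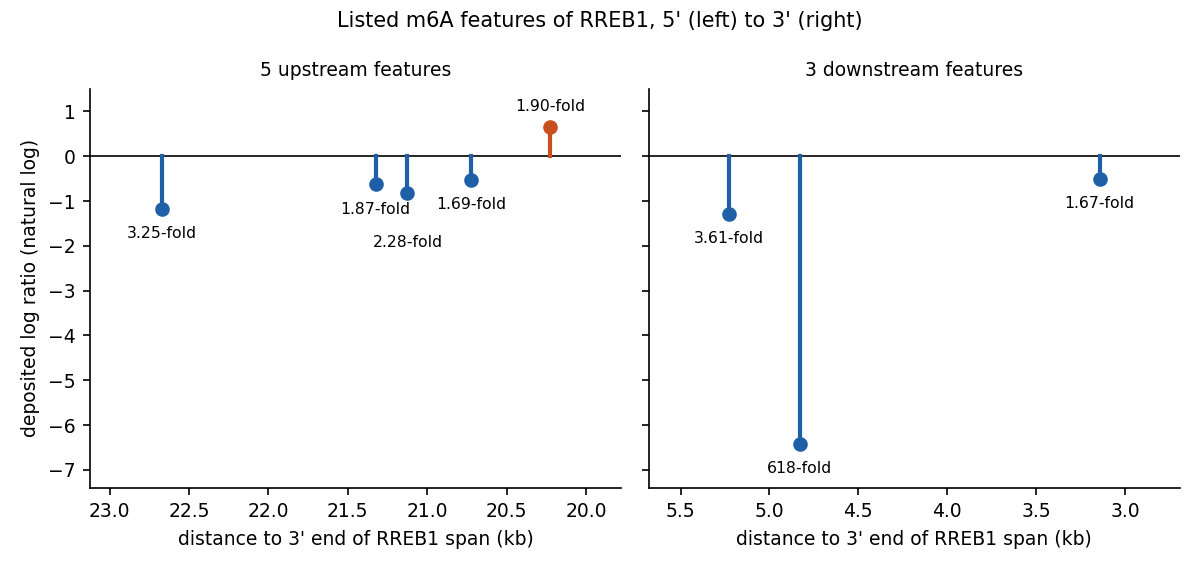
Natural log ratio of each of the 8 listed RREB1 features (vertical axis) against its distance to the 3' end of the RREB1 gene span in kb (horizontal axis, 5' to the left), in a panel for each of both groups of features; blue marks negative and orange positive ratios, and the labels give the fold. The 618-fold feature stands far below the other 7, which lie between 1.67-fold and 3.61-fold.

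The 618-fold ratio has to be read by its form. At a relative tolerance of 1e-08 it falls on a multiple of 0.5, as did 1415 listed features in all (30.7%), and such ratios are called stepped here. Dividing whole-number totals can produce them when the divisor is at the lowest counts. Stepped ratios made up 87.0% of all listed features of 20-fold or more and 0.818% of those under 8-fold. Among the RREB1 features, 1 was stepped. The 3.25-fold feature is a multiple of 0.25 and no multiple of 0.5. Ratios on fractions other than 0.5 were not called stepped, so a ratio without that name can also rest on low counts. Without a count per library, how much signal stood in the larger arm at the 618-fold feature is unknown, and its size is not a measure of how far m6A changed there. The other 7 features of RREB1, among them the feature 348 nt upstream of it, were all under 4-fold.

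Set beside the whole table, the ratios of RREB1 were small, the 618-fold feature apart. Of all listed features, 43.7% were negative (2017 of 4616), and of those without a stepped ratio 54.8% were (1753 of 3201). In RREB1 7 of 8 were negative, the count for which the gene was chosen, so nothing is read from it. The median fold of its 7 negative features was 2.28, and 2.08 without the 618-fold feature. Over all 2017 negative features, 264 of them stepped, the median was 3.95-fold (quartiles 2.46 and 9.25). It was not computed without the stepped ratios, so only the 2.28 is a like value. Of all listed features 10.3% (476) were negative at 10-fold or above, and RREB1 held 1 of them. The 618-fold feature was the 9th largest negative ratio of the table. The other negative features of RREB1 had ratios larger than those of 0.595% to 44.8% of all negative features. The 1.90-fold positive feature exceeded 4.81% of the 2599 positive features, whose median was 10.1-fold.

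None of the p-values of RREB1 was among the smallest of the table: 16.6% to 81.0% of all listed features had a smaller one. The authors' deposited table held no p-value above 0.00455 and no ratio under 1.65-fold, so it lists features that had passed a threshold, and the 1.67-fold feature of RREB1 stands near its edge. The smallest p-value of RREB1, at the 618-fold feature, was number 767 of 4616 in order. The 2.28-fold feature was number 1083, the 3.25-fold feature number 1538 and the 1.87-fold feature number 2001. The remaining 4 features, among them the positive one, had p-values above 0.001. At 0.001 or lower, 4 features of RREB1 remained, and all 4 were negative. The gene was chosen for its signs, and the negative share at such p-values was not computed over all listed features. Nothing is therefore read from these 4. The 3.61-fold feature had a larger p-value than the 1.69-fold, 1.87-fold and 2.28-fold features, so within RREB1 the order by size and the order by p-value were not the same.

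**Figure D2:**
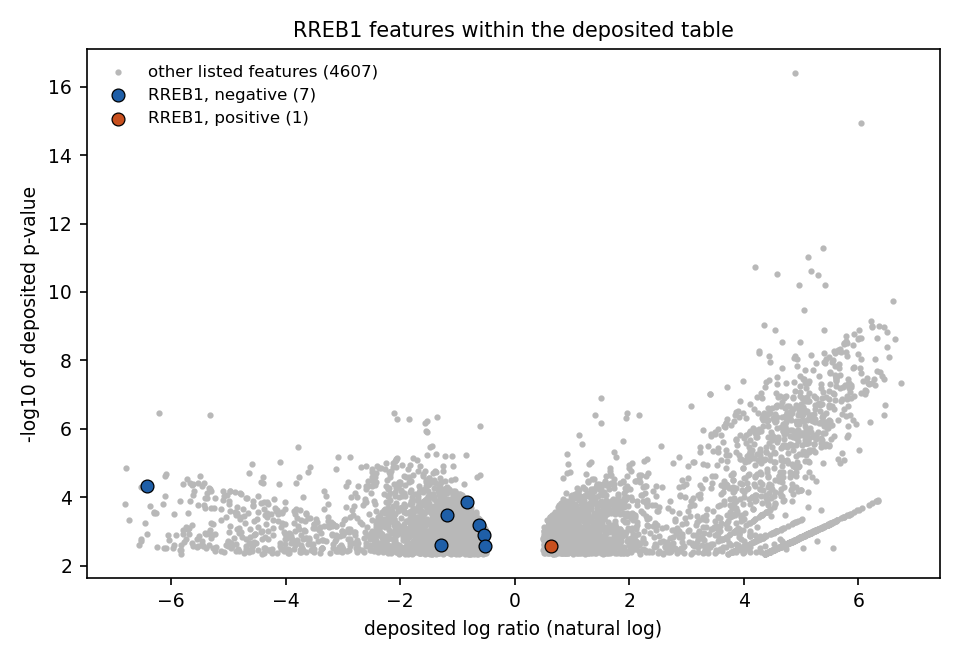
Natural log ratio (horizontal axis) against -log10 of the deposited p-value (vertical axis) for the listed features, with the 7 negative RREB1 features in blue, the positive one in orange and the other listed features in grey; 1 feature with a log ratio above 10 is not drawn. Except for the 618-fold feature at the far left, the RREB1 features lie in the inner part of the cloud, from 1.67-fold to 3.61-fold.

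The number of features was part of the choice of RREB1, so the genes with many features are given only to set its values beside theirs. Of 3114 gene names, 2168 had 1 feature, and 5 genes had 8 or more, RREB1 by choice among them. With 6 or more features there were 18 other genes, with 127 features in all. Of these features 73 (57.5%) were negative, against 43.7% over all listed features. Negative features outnumbered positive ones in 8 of these genes, were as many in 4 and fewer in 6. These counts per gene were not made over all listed genes, so nothing is read from them. A negative share at least as high as that of RREB1 was found in 2 of the 18, CENPF and PLEC. Only 1 of the 18, IRS2, had a smaller median negative ratio than RREB1, and the medians ran from 1.76-fold to 18.9-fold. IRS2 is named here because of that value and encodes an adaptor of insulin receptor signalling.

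The 6 genes nearest to RREB1 in their counts were ranked by the sum of the differences in the number of features and in the number of negative ones. CENPF, which encodes a kinetochore protein, had the same counts, 7 negative of 8 (sum 0). The authors' deposited table placed its negative features from 1.86-fold to 5.87-fold, with a median of 3.88-fold, and its positive feature at 4.35-fold. Counted from the 5' end, the positive feature was number 6 of 8 in CENPF and number 5 of 8 in RREB1. Both genes were picked by their counts of signs, so nothing is read from this order. PLEC, which encodes the cytoskeletal linker plectin, followed with 7 negative of 7 (sum 1), which the authors' deposited table placed from 2.34-fold to 5.88-fold. Neither CENPF nor PLEC held a ratio of 10-fold or more, whereas RREB1 held 1, the stepped 618-fold ratio. Negative ratios of that size were also found in 9 of the 18 other genes with 6 or more features, a count not made over all listed genes.

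FAT1, GNA12, MKI67 and ZNF292 came next (sum 3 each). FAT1, a large cadherin gene, had 4 negative and 4 positive features, with 6.99-fold as the largest negative and a stepped 38-fold as the largest positive ratio in the authors' deposited table. GNA12, which encodes a G protein alpha subunit, had 5 negative features of 7, and as in RREB1 the largest was far from the rest, at a stepped 345-fold against 6.82-fold and less in the authors' deposited table. MKI67, the gene of a proliferation marker, had 5 negative of 7 with a largest negative ratio of 11.5-fold in the authors' deposited table. ZNF292, another zinc finger gene on chromosome 6, had 5 negative of 7, with a stepped 31-fold as the largest in the authors' deposited table. In the authors' deposited table GNA12 also held a stepped positive ratio of 168-fold and MKI67 a positive ratio of 24.3-fold.

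**Figure D3:**
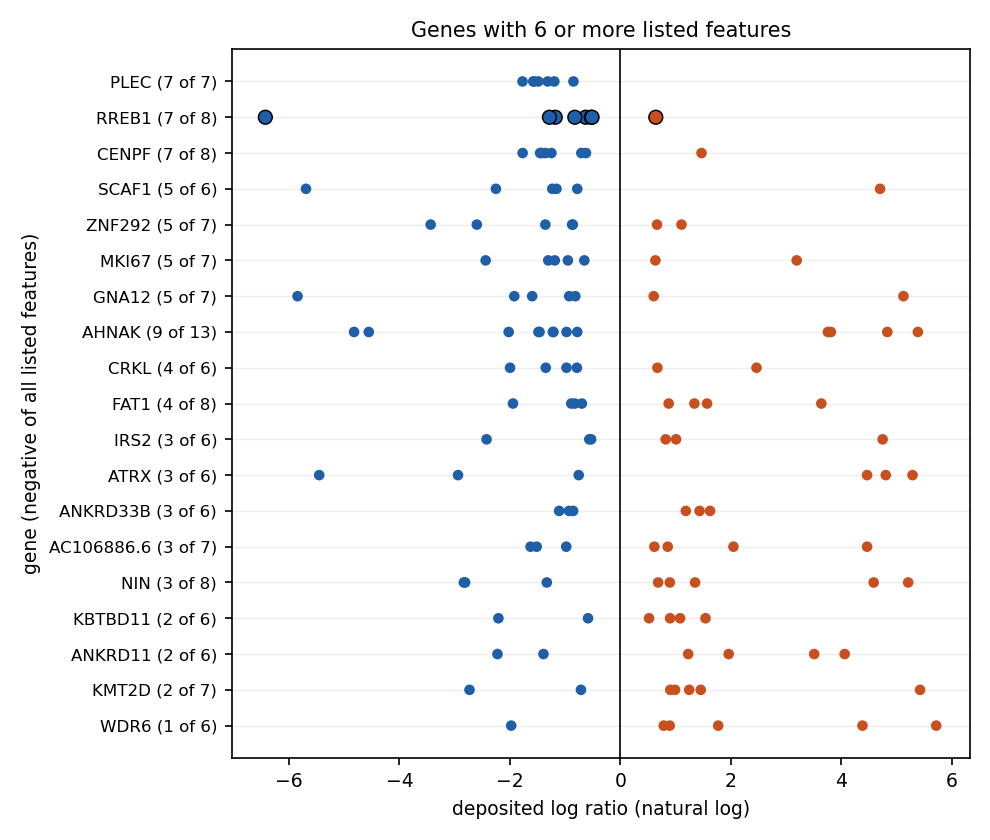
Natural log ratios of all features of the 19 genes with 6 or more listed features, 1 gene per line, ordered by the negative share given with each name; blue marks negative and orange positive ratios, and RREB1 is outlined in black. RREB1 and CENPF have 7 negative features of 8, PLEC 7 of 7, and the 618-fold feature of RREB1 is the leftmost point.

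Genes of RAS-MAPK signalling, downstream of which RREB1 acts, carried features of both signs. How many genes were tested is unknown, so no count of listed genes below can be set against a share over all genes. Of 32 RAS-MAPK signalling genes, 8 were listed, with 5 negative and 7 positive features (41.7% negative, against 43.7% over all listed features, and a median log ratio of 0.87, against 0.78). Without stepped ratios 4 of 9 were negative (44.4%, against 54.8%). The smallest p-value that the authors' deposited table held for this list belonged to RPS6KA1, a kinase activated by ERK, with a stepped positive ratio of 80-fold (p = 4.4e-07). For SPRED2, an inhibitor of RAS-MAPK signalling, the authors' deposited table held positive ratios of 7.13-fold (p = 2.5e-05) and 90-fold (stepped) and a negative ratio of 2.22-fold. For RASA1, a GTPase-activating protein of RAS, the authors' deposited table held a positive ratio of 5.37-fold and a negative, stepped ratio of 37-fold. According to the authors' deposited table SOS1, the exchange factor that loads RAS with GTP, was negative at 2.15-fold (p = 0.000266), a size within the range of the RREB1 features.

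The TGF-beta/SMAD and corepressor list, which holds known partners of RREB1, had 9 of 17 genes listed, also with 5 negative and 7 positive features (41.7% negative, median log ratio 0.64). Without stepped ratios 5 of 9 were negative (55.6%, against 54.8% over all listed features). With them the share over all listed features was 43.7%, so this list lay near the whole table in both counts. By p-value, the authors' deposited table put SMAD3 first, which transmits TGF-beta signals to the nucleus, with a stepped positive ratio of 51.5-fold (p = 1.5e-07). Positive and stepped too, in the authors' deposited table, were EHMT1, a histone methyltransferase, at 210-fold and the inhibitory SMAD7 at 28-fold. SKIL, a repressor of SMAD signalling, was negative in the authors' deposited table, at 5.90-fold (p = 7.0e-06). Of 10 genes reported as RREB1 targets, 2 were listed, both with 1 negative feature. Over all listed features 43.7% were negative, and nothing is read from 2 features. The authors' deposited table gave SLC39A3, a zinc transporter gene, 4.25-fold (p = 0.00132) and ZEB1, a repressor in the epithelial-mesenchymal transition, a stepped 274-fold (p = 0.00268). ZEB1 also counts among the other C2H2 zinc finger factors below.

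Other C2H2 zinc finger transcription factors carried features of both signs. Their list also holds ZFP36L1, which has CCCH and not C2H2 zinc fingers and had no listed feature. Of 67 symbols, 28 genes were in the table, with 34 negative and 24 positive features (58.6% negative, against 43.7% over all listed features, median log ratio -0.78). Without stepped ratios 30 of 43 were negative (69.8%, against 54.8%). All features were negative in 11 of these genes and positive in 6, with genes of a single feature among them. By the leading feature of each gene, the one with the smallest p-value, 12 genes were negative and 16 positive. Neither of these counts per gene was made over all listed genes, so nothing is read from them. PRDM2, which joins zinc fingers to a methyltransferase domain, was mixed in the authors' deposited table, with 763-fold (stepped, p = 2.3e-09) and 3.43-fold on the positive side and 2.29-fold and 6.91-fold on the negative side. Both features that the authors' deposited table listed for HIVEP1, a large zinc finger protein that binds NF-kappaB-like sites, were positive, at 247-fold (stepped) and 5.36-fold. For WT1, a zinc finger factor overexpressed in many leukaemias, the authors' deposited table held 1 feature, positive and stepped, at 211-fold. MTF1, the metal-responsive transcription factor, was split in the authors' deposited table between 234-fold (positive, stepped) and 5.71-fold (negative).

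**Figure D4:**
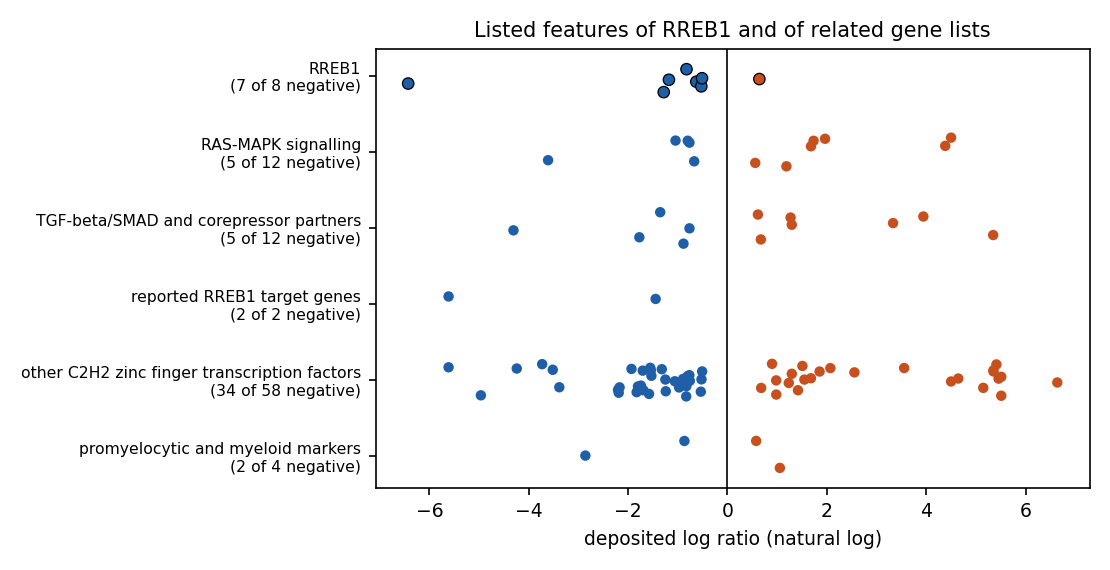
Natural log ratios of the listed features of RREB1 and of 5 gene lists, 1 list per line, with points spread vertically for legibility; blue marks negative and orange positive ratios. The RAS-MAPK list has 5 negative features of 12, the TGF-beta/SMAD list 5 of 12 and the other C2H2 zinc finger factors 34 of 58; RREB1 was chosen for its 7 of 8.

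The table gives changes and no expression levels, so the label HL-60 could not be checked against marker levels. Of 13 promyelocytic and myeloid markers, 3 were listed, with 2 negative and 2 positive features. This is 50% negative, against 43.7% over all listed features, and nothing is read from 4 features. In the authors' deposited table CSF3R, the G-CSF receptor, was negative at 17.5-fold, and SPI1, the myeloid transcription factor PU.1, was negative at 2.38-fold. The authors' deposited table held positive ratios of 1.78-fold and 2.87-fold for CEBPA, a regulator of granulocyte differentiation.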

How the data were processed

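The members and gene lists were chosen with earlier results of these data known. Reads of 50 bases were made from input and m6A libraries, per the labels' protocols. The submitters' processing notes name STAR 2.7.3a and hg38. For the tool that made the comparison, none is given in the sources used here. The natural log ratio and the p-value, which is not marked as adjusted, were used as the authors deposited them. The header gives no log base. The natural log was chosen because its exponential was a multiple of 0.5 in 1415 features, against 0 with base 2. Features on chromosome Y that copied a chromosome X feature (10 of 4626) were left out. Positions are 1-based with both ends included. Gene spans came from RefSeq on GRCh38.p14, and 4240 features (91.9%) lay inside the span of a gene of the same symbol. No depth per library is known here, and no test was run. Beside RREB1, the named genes are the 6 nearest in counts, those with 6 or more features and a negative share at least as high, up to 4 per list by p-value, and listed genes within 1 Mb. Stepped ratios, a stricter p-value, a 2-fold minimum, merged sites, position in place of name and log base 2 were tried as alternatives. The work used matplotlib 3.10.9, scipy 1.17.1, numpy 2.4.6 and pandas 2.3.3 under Python 3.11.15, and the detection of stepped ratios was tested on simulated data.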

Additional observations from a re-analysis of the deposited data

How the results depend on the processing

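RREB1 was chosen for its 7 negative features of 8, so counts over parts of the same features are a description and no sign of stability. Without stepped ratios, and with features within 200 nt counted as 1 site, 6 of 7 were negative (85.7%), and by position in the gene span 7 of 8. With a p-value of 0.001 or lower, and with a ratio of 2-fold or more, 4 of 4 were negative (100%), since the positive feature failed both. The median negative ratio of RREB1 was 2.28-fold, and 1.77-fold with the log read to base 2, 2.08-fold without stepped ratios and 2.77-fold at p-values of 0.001 or lower. Other genes with a negative share at least as high were 6 of 50 with 5 or more features and 1 of 4 with 8 or more. That count was 2 without stepped ratios and with the chromosome Y copies kept, the latter tried after seeing the data. By the leading feature of each gene, 42.9% of the other C2H2 zinc finger factors were negative, a share not computed over all listed genes. Without stepped ratios the TGF-beta/SMAD list had 5 negative of 9 (55.6%, against 54.8% over all listed features). No paired analysis was possible because the table holds no value per library, and leaving out replicates was not run for the same reason. With no counts and 2 cultures per treatment, neither the spread between cultures nor the precision of a ratio is known here.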

Other observations

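Around RREB1 on chromosome 6, of 11 other protein-coding genes with any part within 1 Mb of its span, 2 were listed, and the nearest, SSR1, whose span begins 29162 nt beyond the 3' end of RREB1, was not. The 3 listed features of this stretch were all positive, as were 2599 of the 4616 listed features. All 3 were on the minus strand, the nearest of them 630734 nt from RREB1. TXNDC5, a protein disulfide isomerase gene, had a positive 118-fold stepped ratio (p = 5.3e-06), 631172 nt from RREB1, and BLOC1S5, a gene of lysosome-related organelle biogenesis, a positive 2.07-fold feature (p = 0.000290) in the authors' deposited table. The readthrough gene BLOC1S5-TXNDC5 had a positive 3.73-fold feature (p = 0.00185) in the authors' deposited table, and reads there can also belong to TXNDC5.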
